A study of Mus musculus with 36 samples.

Results

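The genes described here build and pull the actomyosin cytoskeleton, the contractile network of actin filaments and nonmuscle myosin II that lies beneath the plasma membrane. They are 40 named mouse genes, listed by symbol and matched to the Ensembl identifiers of the deposited counts, of 52636 genes in those counts. All 40 were matched, and 38 passed the filter on low counts; Myl9 and Rdx did not. The list names genes by function and was drawn up with earlier results of these data known.

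Intestinal organoids are epithelial cysts and buds grown in Matrigel from crypts, here from the jejunum of 6 C57BL/6 mice. Freshly passaged cultures were kept for 2 days in 1 of 6 conditions, with 6 replicates each. Control IgG was given in complete media, QCM, SCM or Wnt5a, and anti-Ptk7 in SCM or Wnt5a. Complete media is IntestiCult, QCM comes from quiescent and SCM from senescent mouse embryonic fibroblasts that conditioned it, and the Wnt5a cultures received recombinant Wnt5a, a noncanonical Wnt ligand, in complete media. Every culture carried an antibody, either control IgG or anti-Ptk7 against the Wnt co-receptor Ptk7, and no culture of complete media or QCM with anti-Ptk7 was analysed here. The labels number the replicates 1 to 6 in each group without tying the numbers to the 6 mice, so the p-values measure the spread between these cultures. A culture is a mixture of epithelial cells, in which fewer cells of a type and less RNA per cell cannot be told apart.

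Actin monomers assemble into filaments under formins, profilin and the Arp2/3 complex, and cofilin takes the filaments apart. Bundles crosslinked by alpha-actinin and filamin and coated by tropomyosin contract when RhoA activates ROCK, which raises the phosphorylation of the myosin light chain. Adhesion plaque proteins such as talin, vinculin and zyxin carry this tension to the matrix, and ezrin, radixin and moesin (the ERM proteins) tie actin to the membrane, in the intestine above all to the microvilli of the brush border. Free actin monomer binds MRTF, the cofactor of the serum response factor SRF, and many actin cytoskeleton genes carry an SRF binding site, the CArG box, in their promoters.

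A minority of the members held that site. Of the 36 members with a promoter in the RefSeq set for GRCm38.p6 (250 bases before to 50 after the start), 6 held a CArG box, or 16.7%, against 488 of 27025 genes, or 1.81%. Both strands were searched, and the consensus of the box is symmetric. The 6 stretches of 100 bases that hold it are shown because they locate the site in those 6 members; the capitals mark the box and each sequence is written along the gene.
Actg1, chr11:120348531-120348630, minus strand: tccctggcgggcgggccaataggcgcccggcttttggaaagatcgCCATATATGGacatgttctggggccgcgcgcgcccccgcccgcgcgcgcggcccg
Cnn2, chr10:79988499-79988598, plus strand: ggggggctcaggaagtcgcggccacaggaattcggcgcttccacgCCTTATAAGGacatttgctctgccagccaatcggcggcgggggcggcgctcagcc
Lima1, chr15:99820150-99820249, minus strand: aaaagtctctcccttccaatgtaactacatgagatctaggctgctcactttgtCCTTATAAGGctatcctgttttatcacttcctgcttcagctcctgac
Myl6, chr10:128493010-128493109, minus strand: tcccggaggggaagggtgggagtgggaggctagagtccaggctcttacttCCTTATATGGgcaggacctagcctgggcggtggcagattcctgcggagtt
Myl9, chr2:156775258-156775357, plus strand: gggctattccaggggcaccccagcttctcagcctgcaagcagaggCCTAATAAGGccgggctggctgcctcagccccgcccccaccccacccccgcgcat
Vcl, chr14:20929148-20929247, plus strand: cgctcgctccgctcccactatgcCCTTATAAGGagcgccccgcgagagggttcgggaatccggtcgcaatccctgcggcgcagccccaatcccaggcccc
Counted from the RefSeq start of the window shown, the box began at -90 in Actg1, -56 in Cnn2, -47 in Lima1, -50 in Myl6, -161 in Myl9 and -227 in Vcl. For Lima1 and Myl6 that start lay 55307 and 1136 bases inside the gene, counted from its annotated 5' end, and the second window of Myl6, near that end, held no box. The TEAD motif, GGAATG or its reverse complement CATTCC, was in 10 of the 36 members (27.8%) and in 16.6% of all genes. These matches describe letters in a window and not binding. No promoter was in the set for Actb, Diaph1, Rock1 and Tagln.

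Total counts ran from 9581589 to 21029769 per library, with a median of 13490071. The 40 genes took 0.838% to 1.05% of the counts in complete media (median 0.928%), with medians of 0.979% in QCM, 1.23% in SCM, 1.05% in SCM + anti-Ptk7, 1.26% with Wnt5a and 1.14% when anti-Ptk7 was added to it. Of the epithelial markers, Epcam lay between 1807 and 4099 CPM (counts scaled to the TMM-adjusted library size) over all libraries, Cdh1 between 938 and 3978 and Vil1 between 547 and 1127. The summed CPM of 12 fibroblast markers was 4.00 to 8.14 in complete media, 2.19 to 10.04 in SCM and 15.4 to 41.2 in Wnt5a, where Fn1 alone gave 6.79 to 35.95; Col1a1 was at 0 to 0.565 in every library. Acta2, which defines smooth muscle and myofibroblasts, stayed at or below 0.451 CPM, and the 9 markers of that list summed to 41.5 to 58.8 in complete media, 22.7 to 43.2 in SCM and 27.6 to 57.0 in Wnt5a. The 4 endothelial markers summed to at most 2.83 CPM and the 6 immune markers to at most 4.89. Replicate 1 stood apart. It was the highest of its 6 libraries in 17 of the 38 tested members in complete media, 19 in QCM, 22 in SCM, 25 in SCM + anti-Ptk7, 30 with Wnt5a and 34 with Wnt5a plus anti-Ptk7, and it also had the highest sum of 9 epithelial markers in each group, such as 29428 CPM in Wnt5a + IgG against a group median of 16615. The counts of members called, and the calls that changed, are therefore given with and without the 6 libraries of that number, while fold changes of single members rest on all libraries unless stated.

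**Figure D1:**
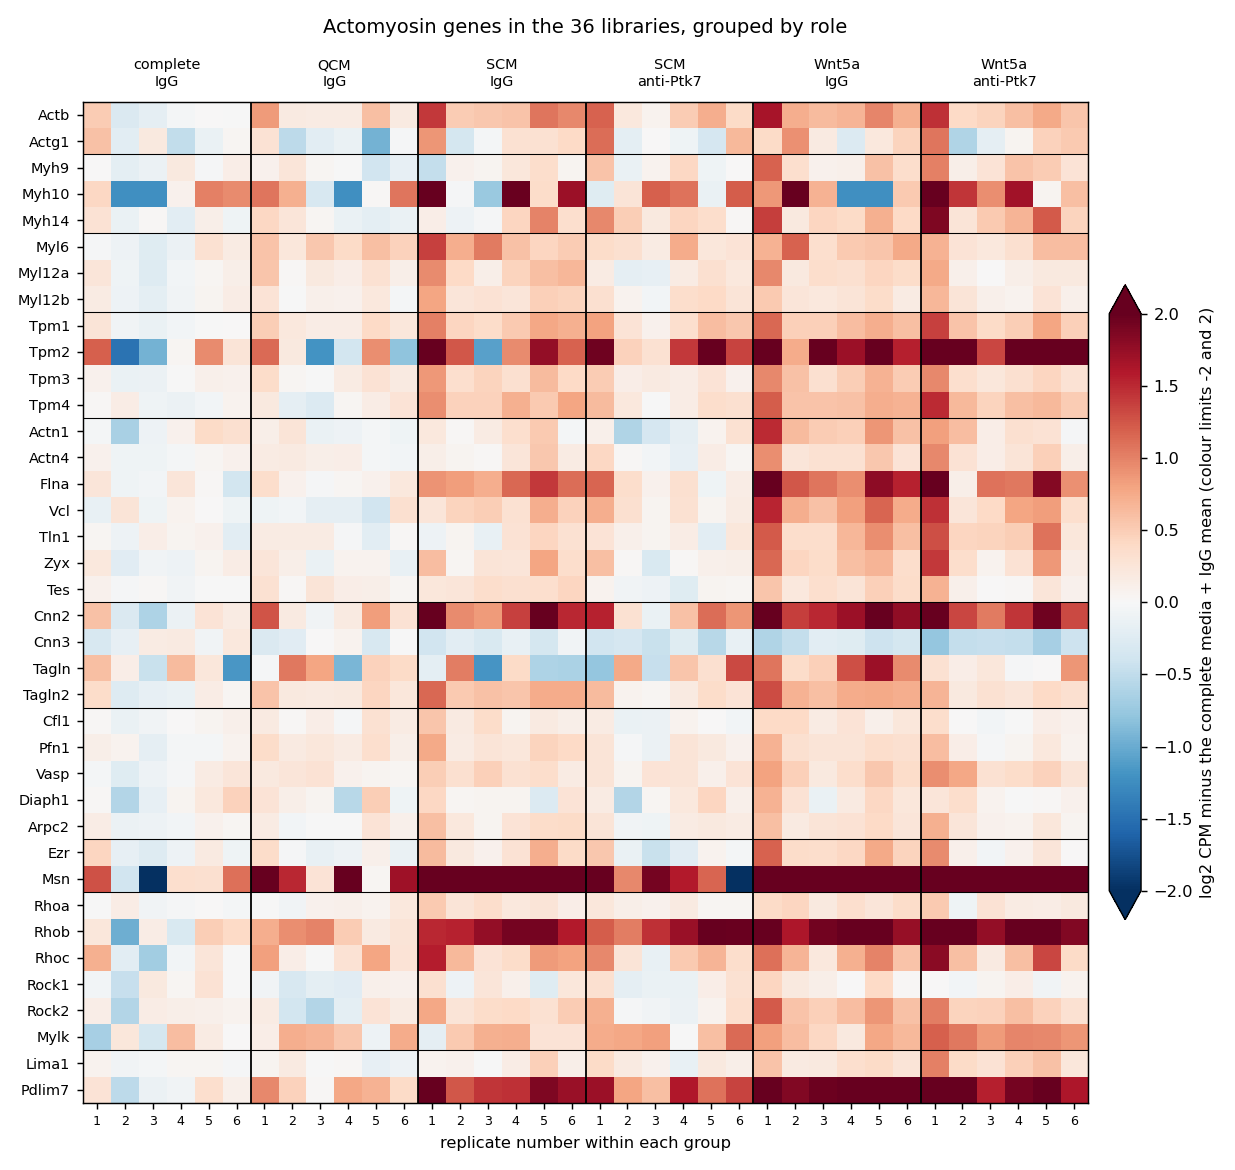
Each row is 1 of the 38 tested members, grouped by role, and each column 1 of the 36 libraries, in 6 groups by replicate number. Colour gives log2 CPM minus the mean of the complete media + IgG libraries, from -2 to 2. Msn, Rhob, Pdlim7, Cnn2 and Flna are red in SCM and Wnt5a, Cnn3 is pale blue there, and replicate 1 is the darkest column of both Wnt5a groups.

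Many of the genes rose in senescent medium and with Wnt5a, and none fell past both cutoffs. Against complete media, 11 of the 38 tested members (28.9%) rose in SCM and 20 (52.6%) in Wnt5a, the call being an adjusted p below 0.05 together with more than a 1.5-fold change (edgeR quasi-likelihood fit with Benjamini-Hochberg adjustment). Over all 15497 genes tested, 4.96% were higher and 1.12% lower by the same rule in SCM, and 8.29% were higher and 1.88% lower in Wnt5a. All 11 members called in SCM were also called in Wnt5a, 18 were called in neither, and the complete media libraries are shared by both comparisons. The median log2 fold change of the members was 0.39 in SCM and 0.62 in Wnt5a, against 0.0068 and 0.0051 over all genes tested. On adjusted p alone, 20 members were higher and 0 lower in SCM (all genes: 7.43% and 4.45%), and 32 were higher and 1 lower in Wnt5a (all genes: 12.5% and 9.4%). With the study's own method, voom and limma on quantile-normalized values, the calls over all genes shifted from 768 higher and 174 lower to 550 and 297 in SCM, and from 1285 and 291 to 1015 and 562 in Wnt5a; the members called were 10 and 16, all higher.

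The mean log2 difference of the 38 members from complete media is a summary per library. It was -0.25 to 0.21 (median 0.052) in complete media, 0.053 to 0.41 (0.17) in QCM, 0.32 to 0.84 (0.60) in SCM and 0.62 to 1.29 (0.72) in Wnt5a. SCM and Wnt5a libraries all lay above the highest complete media library, and their ranges overlapped each other. The members' libraries did not overlap between complete media and SCM for 14 members (36.8%, against 6.29% of all genes), and between complete media and Wnt5a for 24 (63.2%, against 11.7%). The summed CPM of the epithelial markers moved in the same direction. Their 9 genes summed to 9021 to 12362 CPM in complete media, 13275 to 20921 in SCM and 15563 to 29428 in Wnt5a, none of them was at 0, and 4 were called higher in SCM and 5 in Wnt5a (edgeR). Their part in the members' rise was not tested. Without replicate 1, all 11 members called in SCM remained, beside 5.12% of all genes higher, and 15 of the 20 in Wnt5a, beside 7.3%. The 5 that were lost were Actn1, Ezr, Myh14, Tpm3 and Zyx, with log2 fold changes of 0.57, 0.56, 0.49, 0.54 and 0.53 against a cutoff of 0.585. Without Wnt5a + IgG replicate 1 alone, 13 members were called in Wnt5a, beside 987 of 15690 genes higher, where 1285 of 15497 were higher with all libraries. Of the members with the largest changes, Msn had log2 fold changes of 3.24 in SCM and 4.91 in Wnt5a without the 6 libraries of replicate 1, Rhob 1.72 and 1.97, Pdlim7 1.60 and 2.22, Cnn2 1.48 and 1.84, and Flna 1.11 and 1.39.

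**Figure D2:**
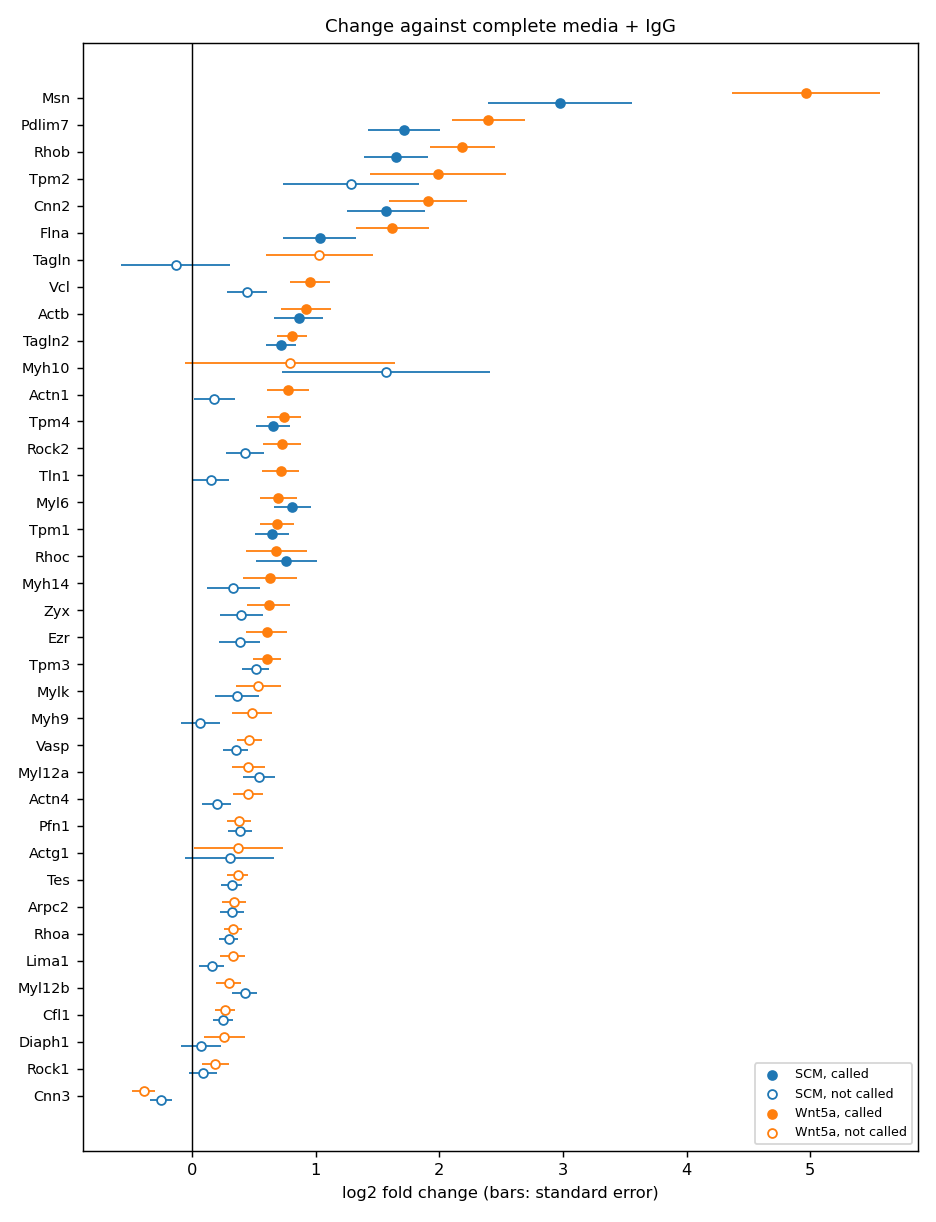
Log2 fold change of the 38 tested members against complete media + IgG in SCM (blue) and Wnt5a (orange), ordered by the value in Wnt5a; bars are standard errors and filled points were called. Msn lies farthest right in both, at 2.98 and 4.97, and Cnn3 is the only member below 0 in Wnt5a.

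Moesin, the ERM protein of leukocytes and mesenchymal cells, had the largest change. Msn (chrX:96096042-96168552, GRCm38, plus strand, protein coding) lay at 0 to 2.09 CPM (median 1.02) in complete media and 0.808 to 4.11 CPM (median 2.68) in QCM. It lay at 4.61 to 11.6 CPM (median 8.84) in SCM and 19.8 to 66.6 CPM (median 31.1) in Wnt5a. The 3 ranges of complete media, SCM and Wnt5a did not overlap, and the 66.6 CPM of Wnt5a + IgG replicate 1 was far above the other 5, which ended at 31.9. The log2 fold change was 2.98 (standard error 0.59, adjusted p = 0.000705) in SCM and 4.97 (standard error 0.60, adjusted p = 2.90e-07) in Wnt5a (edgeR quasi-likelihood fit with Benjamini-Hochberg adjustment). Ezrin, the ERM protein of the brush border, was at 406 CPM per kb of coding length in complete media against 0.629 for Msn. Ezr rose by 0.60 in Wnt5a (adjusted p = 0.00762, edgeR) and differed by 0.38 in SCM (adjusted p = 0.135). The call of Ezr in Wnt5a rested on the fold cutoff and was lost without complete media replicate 2, 3, 4 or 6 (0.55 to 0.57) or Wnt5a + IgG replicate 1 (0.46) or 5 (0.58). It was also lost with voom and TMM (0.58), upper-quartile scaling (0.57) or library size alone (0.55). Radixin, the other ERM gene, had at most 1.26 CPM in any library and was not tested. The 12 fibroblast markers summed to 4.00 to 8.14 CPM in complete media and 15.4 to 41.2 in Wnt5a, with replicate 1 the highest library as for Msn, and summed to 2.19 to 10.04 in SCM. Of these 12, 7 were at 0 in every library of complete media and 7 in every library of Wnt5a. Vim, a mesenchymal marker in that list, was at 1.69 to 5.43 CPM in complete media, 0 to 6.82 in SCM and 3.57 to 7.24 in Wnt5a. Their part in the rise of Msn was not tested.

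**Figure D3:**
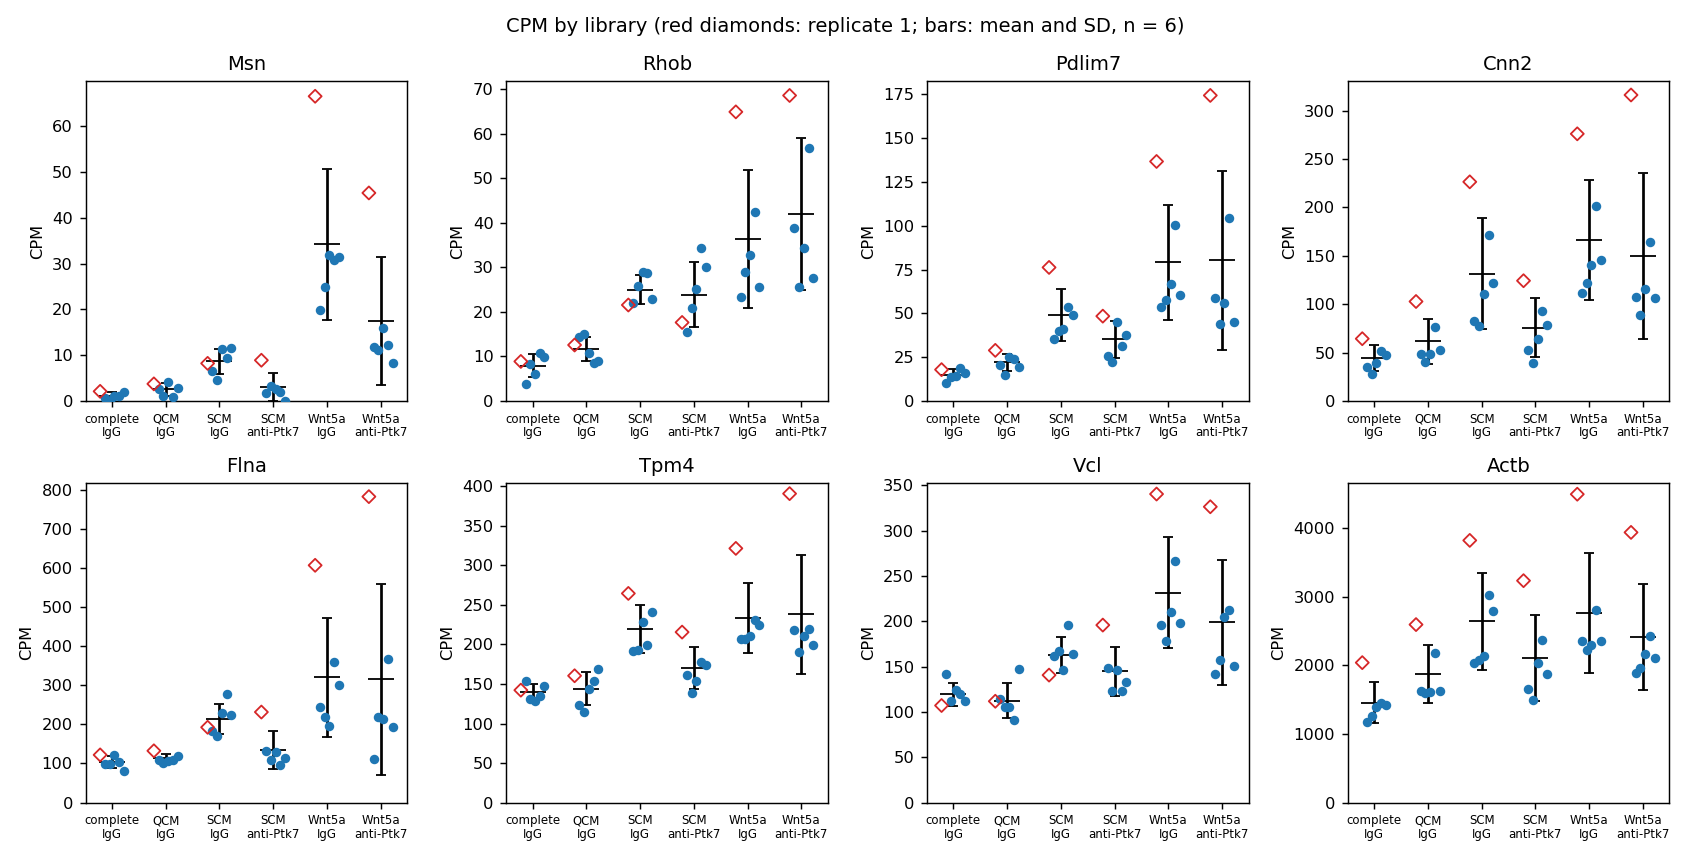
CPM of 8 members in each library, on axes that start at 0; red diamonds are replicate 1, blue dots replicates 2 to 6, and bars the mean and SD (n = 6). In Wnt5a + IgG, replicate 1 is the highest library of all 8, at 66.6 CPM for Msn and 4490.1 for Actb.

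Among the small GTPases and contractility kinases, Rhob and Rhoc rose in both media and Rock2 in Wnt5a. Rhob (chr12:8497661-8500009, an endosomal GTPase and an early response gene) was at 3.76 to 10.7 CPM (median 8.60) in complete media and 8.55 to 15.1 CPM (median 11.7) in QCM. It was at 21.6 to 28.9 CPM (median 24.4) in SCM and 23.3 to 65.0 CPM (median 30.9) in Wnt5a. No SCM or Wnt5a library reached down to the complete media range. Its log2 fold change was 1.65 (standard error 0.26, adjusted p = 4.72e-05) in SCM and 2.19 (standard error 0.26, adjusted p = 2.88e-07) in Wnt5a (edgeR quasi-likelihood fit with Benjamini-Hochberg adjustment). Rhoc, a promoter of cell migration, rose by 0.76 in SCM (adjusted p = 0.0395, edgeR) and 0.68 in Wnt5a (adjusted p = 0.0448), with libraries that overlapped complete media in both. The SCM call of Rhoc was lost without SCM + IgG replicate 1 (0.54, adjusted p = 0.194), 5 (adjusted p = 0.062) or 6 (adjusted p = 0.056), and without complete media replicate 2, 3, 4 or 6 (adjusted p = 0.0727 to 0.119, edgeR). It was also lost with voom on quantile-normalized values (adjusted p = 0.0513, limma) and with no filter (adjusted p = 0.0526, edgeR). The Wnt5a call was lost without complete media replicate 2, 3, 4 or 6 or Wnt5a + IgG replicate 1, 2, 4, 5 or 6 (0.56 to 0.70, adjusted p = 0.0528 to 0.126, edgeR), and with no filter (adjusted p = 0.0665).

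Rhoa, the activator of ROCK, lay at 80.4 to 93.8 CPM (median 84.0) in complete media, 92.5 to 122 CPM (median 102) in SCM and 97.2 to 115 CPM (median 109) in Wnt5a. The Wnt5a libraries lay just above complete media, yet the difference of 0.33 (adjusted p = 0.00163, edgeR) and that of 0.29 in SCM (adjusted p = 0.00843) were below the fold cutoff. Of the kinases that RhoA activates, Rock2 lay at 84.3 to 140.3 CPM (median 136) in complete media, 152 to 216 CPM (median 164) in SCM and 176 to 294 CPM (median 191) in Wnt5a. Neither medium overlapped complete media, and Rock2 rose by 0.73 in Wnt5a (adjusted p = 0.000869, edgeR) and differed by 0.43 in SCM (adjusted p = 0.0687). Rock1 lay at 68.0 to 115 CPM (median 94.7), 79.1 to 118 CPM (median 105) and 94.4 to 127 CPM (median 104) in the same 3 groups, which overlapped throughout. Its log2 fold changes were 0.084 (standard error 0.11, adjusted p = 0.697) in SCM and 0.19 (standard error 0.11, adjusted p = 0.254) in Wnt5a by edgeR. Mylk, the calmodulin-dependent myosin light chain kinase, had 0.36 in SCM (adjusted p = 0.208) and 0.54 in Wnt5a (adjusted p = 0.0298, edgeR), below the fold cutoff; it was called in Wnt5a without complete media replicate 4 (0.67) or Wnt5a + IgG replicate 3 or 4 (both 0.59).

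Of the 7 crosslinkers and adhesion plaque genes, Flna rose in both media, and Vcl, Actn1, Tln1 and Zyx rose in Wnt5a. Flna (chrX:74223461-74249820, filamin A, which crosslinks filaments into a network and anchors integrins) lay at 80.1 to 122 CPM (median 102) in complete media and 101.01 to 132 CPM (median 109) in QCM. It lay at 171 to 277 CPM (median 208) in SCM and 197 to 606 CPM (median 272) in Wnt5a. All SCM and Wnt5a libraries lay above complete media and QCM, and the log2 fold change was 1.03 (standard error 0.29, adjusted p = 0.0177) and 1.62 (standard error 0.30, adjusted p = 0.000144) (edgeR quasi-likelihood fit with Benjamini-Hochberg adjustment). Vcl, vinculin, with a CArG box, rose by 0.95 in Wnt5a (adjusted p = 6.01e-05, edgeR) and differed by 0.45 in SCM (adjusted p = 0.0657). Actn1, the alpha-actinin of stress fibres, was at 49.5 to 100.89 CPM (median 79.3) in complete media, 75.5 to 111 CPM (median 88.7) in SCM and 108 to 219 CPM (median 119) in Wnt5a. It rose by 0.77 in Wnt5a (adjusted p = 0.000979) against 0.18 in SCM (adjusted p = 0.56, edgeR), and the Wnt5a call was lost without Wnt5a + IgG replicate 1 (0.58).

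Tln1, talin, which links integrins to actin, rose by 0.71 in Wnt5a (adjusted p = 0.00062, edgeR), with 0.15 in SCM (adjusted p = 0.589). Zyx, zyxin, which gathers at strained filaments, rose by 0.62 (adjusted p = 0.00895, edgeR), and this call was lost without complete media replicate 2 (0.56) or 4 (0.58) or Wnt5a + IgG replicate 1 (0.49), with voom on quantile-normalized values (0.56) and with library size alone (0.57). Actn4, the alpha-actinin with the higher level here (305 CPM per kb in complete media against 29.1 for Actn1), and Tes, a partner of zyxin, differed in Wnt5a by 0.45 and 0.37 (adjusted p = 0.00535 and 0.00164, edgeR), below the fold cutoff.

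Beta-actin, the filament's own subunit, rose in both media from one of the highest levels among the members. Actb (chr5:142903115-142906754, beta-actin) lay at 1169 to 2038 CPM (median 1408) in complete media and 1601 to 2592 CPM (median 1625) in QCM. It lay at 2031 to 3818 CPM (median 2458) in SCM and 2225 to 4490.1 CPM (median 2357) in Wnt5a. The lowest SCM library lay just below the highest complete media library, which was replicate 1, and the Wnt5a libraries lay above all of them. The log2 fold change of Actb was 0.86 (standard error 0.20, adjusted p = 0.00358) in SCM and 0.92 (standard error 0.20, adjusted p = 0.000971) in Wnt5a (edgeR quasi-likelihood fit with Benjamini-Hochberg adjustment). With 1284 CPM per kb of coding length in complete media, it came after Pfn1 (2432) and before Tagln2 (971).

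Actg1, gamma-actin, the other cytoplasmic actin and a major protein of epithelial cells, was counted at only 0.512 to 1.25 CPM (median 0.757) in complete media, 0.579 to 1.56 CPM (median 1.00) in SCM and 0.618 to 1.60 CPM (median 0.992) in Wnt5a. The groups overlapped, with differences of 0.30 (standard error 0.36, adjusted p = 0.659) and 0.37 (standard error 0.36, adjusted p = 0.517) by edgeR. Its sequence is shared: 78.7% of the 50-base stretches of its coding sequence also occur in transcripts of 22 other genes, 12 of them pseudogenes, against 18.1% for Actb. Reads of such stretches have no single origin, and how far this sets the level of Actg1 was not tested. Msn, Rhob, Rhoc, Pdlim7, Cnn2, Flna, Tpm1 and Tpm2 shared no stretch with another gene.

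**Figure D4:**
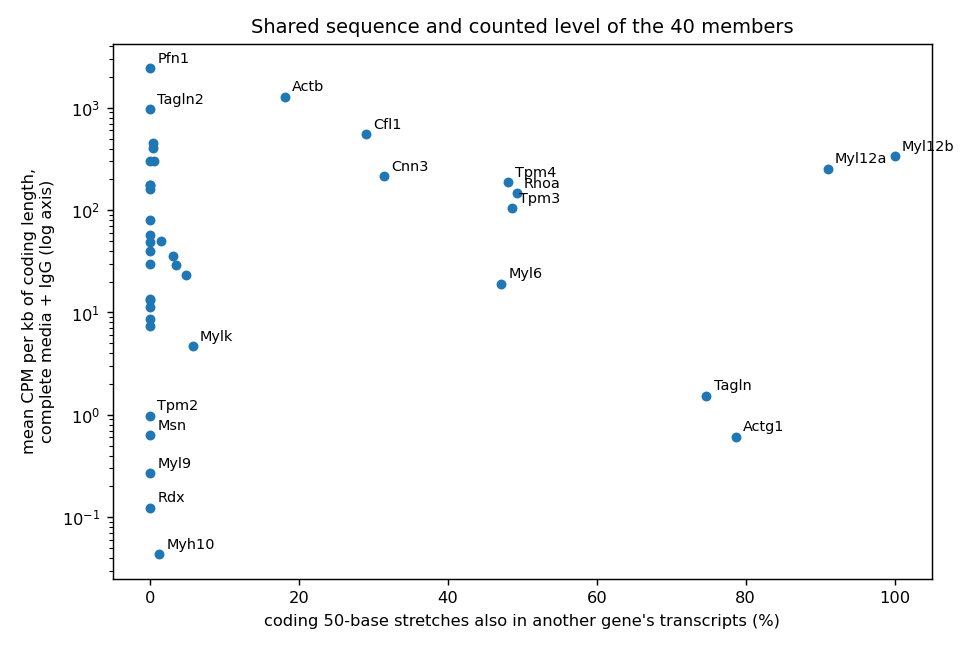
Each point is 1 of the 40 members; the x axis gives the percent of its coding 50-base stretches found in transcripts of another gene, and the y axis, on a log scale, its mean CPM per kb of coding length in complete media + IgG. Actg1 sits at 78.7% and 0.609 CPM per kb, and Myl12b, which a second gene entry of the same name overlaps in full, at 100% and 336.

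All 4 tropomyosin genes rose in Wnt5a, and Tpm1 and Tpm4 also in SCM. Tpm4 lay at 128 to 154 CPM (median 138) in complete media, 115 to 169 CPM (median 149) in QCM, 191 to 265 CPM (median 214) in SCM and 207 to 322 CPM (median 218) in Wnt5a. Neither SCM nor Wnt5a overlapped complete media, and the log2 fold change was 0.65 (standard error 0.14, adjusted p = 0.00149) and 0.74 (standard error 0.14, adjusted p = 0.000178) (edgeR quasi-likelihood fit with Benjamini-Hochberg adjustment). Tpm1 rose by 0.65 and 0.69 (adjusted p = 0.00163 and 0.000435, edgeR). Without SCM + IgG replicate 1 the SCM values were 0.56 for Tpm1 and 0.58 for Tpm4, and without Wnt5a + IgG replicate 1 that of Tpm1 in Wnt5a was 0.57, below the fold cutoff in each case. Tpm3 rose by 0.60 in Wnt5a (adjusted p = 0.00016, edgeR), which fell under the cutoff without complete media replicate 2 or 3 (both 0.57) or Wnt5a + IgG replicate 1 (0.52), with voom on quantile-normalized values (0.56), and with upper-quartile scaling (0.57), library size alone (0.55) or no filter (0.58). Tpm2, the muscle-type tropomyosin, was scarce, at 0.188 to 1.98 CPM (median 0.883) in complete media, 0.291 to 5.47 CPM (median 2.01) in SCM and 1.41 to 6.93 CPM (median 3.26) in Wnt5a. The Wnt5a and complete media libraries overlapped, and its log2 fold change was 1.99 (standard error 0.55, adjusted p = 0.0079) in Wnt5a and 1.29 (standard error 0.55, adjusted p = 0.132) in SCM by edgeR; voom with limma on quantile-normalized values did not call it in Wnt5a (1.68, adjusted p = 0.0700).

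Calponin 2, transgelin 2 and Pdlim7, which bind and stabilise filaments, rose in both media. Cnn2 (chr10:79988584-79996062), with a CArG box 56 bases before its RefSeq start, lay at 27.8 to 64.3 CPM (median 43.7) in complete media and 40.6 to 103 CPM (median 50.4) in QCM. It lay at 77.1 to 226 CPM (median 116) in SCM and 112 to 276 CPM (median 143) in Wnt5a. SCM and Wnt5a lay above complete media, while the SCM range overlapped that of QCM, whose replicate 1 reached 103. The log2 fold change was 1.57 (standard error 0.31, adjusted p = 0.000834) in SCM and 1.91 (standard error 0.32, adjusted p = 4.27e-05) in Wnt5a (edgeR quasi-likelihood fit with Benjamini-Hochberg adjustment). Pdlim7 (chr13:55495795-55513676, a PDZ and LIM protein of stress fibres) lay at 10.2 to 18.7 CPM (median 14.9) in complete media, 14.989 to 28.8 CPM (median 22.1) in QCM, 35.1 to 76.2 CPM (median 44.997) in SCM and 53.4 to 137 CPM (median 63.5) in Wnt5a. The SCM libraries lay above both complete media and QCM, with log2 fold changes against complete media of 1.71 (standard error 0.29, adjusted p = 0.000111) in SCM and 2.40 (standard error 0.29, adjusted p = 3.76e-07) in Wnt5a by edgeR.

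Tagln2, the transgelin of epithelial and blood cells, rose by 0.72 and 0.81 (adjusted p = 0.000107 and 1.05e-05, edgeR), from 971 CPM per kb in complete media. Tagln, its smooth muscle relative, was at 0.296 to 1.39 CPM (median 0.976) in complete media, 0.291 to 1.87 CPM (median 0.607) in SCM and 1.13 to 3.08 CPM (median 1.84) in Wnt5a. The groups overlapped, and the differences were -0.13 (standard error 0.44, adjusted p = 0.888) and 1.03 (standard error 0.43, adjusted p = 0.0868) by edgeR. An antisense gene, Gm48529, covers the whole coding sequence of Tagln, and whether the counting used strand is not given in the sources used here, so reads of the pair cannot be told apart. Cnn3, another calponin, was the member with a value below 0 in both media. It differed by -0.25 in SCM (adjusted p = 0.0659) and -0.39 in Wnt5a (adjusted p = 0.00192, edgeR), below the fold cutoff, and 31.4% of its coding stretches are shared. Lima1, the LIM protein EPLIN, which also has a CArG box, differed by 0.16 and 0.33 (adjusted p = 0.348 and 0.0148, edgeR).

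Of the 3 myosin II heavy chains, 0 rose in SCM and Myh14 rose in Wnt5a (edgeR). Myh9, the heavy chain of nonmuscle myosin IIA, lay at 258 to 339 CPM (median 295) in complete media, 212 to 376 CPM (median 311) in SCM and 314 to 669.8 CPM (median 375) in Wnt5a. All 3 ranges overlapped, and the log2 fold change was 0.064 (standard error 0.16, adjusted p = 0.848) in SCM and 0.48 (standard error 0.16, adjusted p = 0.0268) in Wnt5a by edgeR, neither of which was called. Myh14, the IIC heavy chain, rose by 0.63 in Wnt5a (adjusted p = 0.0348, edgeR) from 40.2 CPM per kb, near the 50.4 of Myh9. This call was lost without complete media replicate 2, 3, 4 or 6 (0.58 to 0.62) or Wnt5a + IgG replicate 1 (0.42, adjusted p = 0.190) or 5 (0.62, adjusted p = 0.0605, edgeR), with library size alone (0.57), with no filter (adjusted p = 0.0504), and by voom with limma (0.54 and 0.57). Myh10, the IIB heavy chain, had at most 2.15 CPM in any library.

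Of the light chains, Myl6, the essential chain, rose by 0.81 in SCM and 0.70 in Wnt5a (adjusted p = 0.000302 and 0.000772, edgeR); the second was 0.57 without Wnt5a + IgG replicate 2. Its CArG box lies before an internal RefSeq start, and 47.2% of its coding stretches are shared with 5 pseudogenes. The regulatory chains Myl12a and Myl12b differed by 0.54 and 0.42 in SCM (adjusted p = 0.00553 and 0.00432, edgeR) and by 0.45 and 0.29 in Wnt5a, below the fold cutoff. A second gene entry named Myl12b overlaps the coding sequence of Myl12b in full and that of Myl12a in part. Of their stretches, 91.0% for Myl12a and 100% for Myl12b occur in another gene, that entry included, so the counting could divide their reads. Myl12a passed the cutoff in SCM without SCM + IgG replicate 3 (0.61) or complete media replicate 1 (0.60). Myl9, the regulatory chain of smooth muscle, was at 0 in 26 of 36 libraries and at most 0.834 CPM.

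The genes that assemble and turn over filaments mostly passed on adjusted p but not on fold change. None of the 5 was called in either medium, and 4 of them, Pfn1, Cfl1, Vasp and Arpc2, passed on adjusted p alone in both. Pfn1, profilin, which feeds monomer to growing ends, differed by 0.39 in SCM and 0.37 in Wnt5a (adjusted p = 0.00624 and 0.00465, edgeR). Cfl1, cofilin, differed by 0.25 and 0.26, Vasp, which elongates filaments, by 0.35 and 0.46, and Arpc2, an Arp2/3 subunit, by 0.32 and 0.33. Diaph1, a formin that RhoA activates, differed by 0.071 (adjusted p = 0.834) and 0.26 (adjusted p = 0.278, edgeR). Across the 10 roles, tropomyosins and ERM linkers had every tested gene called in Wnt5a, with 4 of 4 and 2 of 2 tested, followed by crosslinkers and adhesion plaque genes with 5 of 7. Over all genes tested, 8.29% were called higher in Wnt5a. Without replicate 1, Tpm3 (0.54), Ezr (0.56), Actn1 (0.57) and Zyx (0.53) of these roles were not called, beside 7.3% of all genes higher.

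Further genes of the actin cytoskeleton were counted in lists by function, to be read against the 4.96% of all genes called higher in SCM and 8.29% in Wnt5a. In the lists that set filament length, 4 of 15 genes for monomer binding and severing rose in SCM and 4 in Wnt5a, and 0 of 8 Arp2/3 genes rose in either, although 5 and 4 of these passed on adjusted p alone (edgeR), where 7.43% and 12.5% of all genes were higher. Of 18 tested focal adhesion genes, 2 rose in SCM and 6 in Wnt5a and of 17 other actin-binding genes 3 and 6. Of 13 genes for myosin phosphatase and LIM kinase signalling, 1 and 3 rose. Of 19 genes of the brush border microvillus, 0 rose in SCM and 2 in Wnt5a, and of Srf and its 2 MRTF cofactors 0 in either. No gene of these lists fell past both cutoffs in either medium. Among the genes with the largest changes were Cald1, caldesmon, with 2.40 in SCM and 2.60 in Wnt5a, Dapk1, a kinase of the myosin light chain, with 3.34 in Wnt5a, and Tns4, a tensin of focal adhesions, with 2.09 in Wnt5a (adjusted p = 0.0331, 0.0114, 0.00536 and 5.69e-07, edgeR). Tmsb10, a thymosin that holds actin monomer, rose by 1.61 in SCM (adjusted p = 0.000436, edgeR).

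Fibroblast medium as such was addressed by QCM. Against complete media, 0 members were called in QCM, beside 0.374% of all genes, and the members' median log2 fold change was 0.11, which was 0.059 without complete media replicate 3 and 0.068 without QCM + IgG replicate 1. At an unadjusted p under 0.05 there were 5 of 38 members, beside 1858 of all 15497 genes, and DESeq2 and voom with limma also called 0 (edgeR: 0). The closest were Myl6 (0.46, adjusted p = 0.158), Tagln2 (0.29, adjusted p = 0.291) and Pfn1 (0.23, adjusted p = 0.31, edgeR). Msn, with 1.19 (standard error 0.61), had the largest value. Without replicate 1 the count was again 0, beside 109 of 15538 genes higher and 14 lower.

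SCM against QCM, which compares senescent with quiescent fibroblast medium, gave higher Tpm4, Rhob and Pdlim7, 3 of 38 members beside 0.761% of all genes (edgeR quasi-likelihood fit with Benjamini-Hochberg adjustment). Their log2 fold changes were 0.61 (standard error 0.14, adjusted p = 0.0201), 1.09 (standard error 0.25, adjusted p = 0.0227) and 1.15 (standard error 0.28, adjusted p = 0.0299), and the libraries of the 2 groups did not overlap for any of them. Nor did they for Msn (1.78, adjusted p = 0.0672) and Flna (0.91, adjusted p = 0.0914, edgeR), which were not called. That made 5 of 38 members with separate libraries (13.2%), against 2.19% of all genes. Without replicate 1 there were 5, namely Cnn2, Pdlim7, Msn, Flna and Rhob, beside 1.58% of all genes, with log2 fold changes of 1.07, 1.07, 1.93, 0.99 and 1.15. The count was 0 without QCM + IgG replicate 4 and 1 without QCM + IgG replicate 2 or 3 or SCM + IgG replicate 1. All genes higher were 44, 41, 33 and 50 in these fits, where 118 were higher with all libraries. The call of Pdlim7 was also lost without SCM + IgG replicate 5 (adjusted p = 0.0501) and that of Tpm4 without SCM + IgG replicate 6 (0.58, edgeR).

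Wnt5a against SCM, which sets the purified ligand beside the mixed secretions of senescent cells, gave higher Msn and Actn1, 2 of 38 members beside 0.297% of all genes (edgeR quasi-likelihood fit with Benjamini-Hochberg adjustment). Msn was 1.99 (standard error 0.49, adjusted p = 0.0273) higher on the log2 scale in Wnt5a, and its libraries did not overlap, at 4.61 to 11.6 CPM in SCM and 19.8 to 66.6 in Wnt5a, which held for 1 of 38 members (2.63%) and 2.43% of all genes. Actn1 was 0.59 (standard error 0.17, adjusted p = 0.0461) higher, with overlapping libraries. Its call was lost with voom on quantile-normalized values (0.53) or with TMM (0.55), with upper-quartile scaling (0.57), with library size alone (0.57), with no filter (adjusted p = 0.0717, edgeR) and in a fit of only the groups compared (adjusted p = 0.0843). Without replicate 1 neither was called, at 1.67 (standard error 0.42, adjusted p = 0.058) for Msn and 0.40 (standard error 0.16, adjusted p = 0.251) for Actn1 by edgeR. The count was also 0 without Wnt5a + IgG replicate 1 or 5 or SCM + IgG replicate 1, 2 or 6, 1 without SCM + IgG replicate 3 or 4, and 4 without Wnt5a + IgG replicate 3. All genes higher moved too, from 46 with all libraries to 8, 9, 14, 34 and 16 in the fits with 0 members. They were 44 and 29 in the fits with 1 member and 71 in the fit with 4. Tln1 differed by 0.57 (adjusted p = 0.0315, edgeR), just below the fold cutoff, and passed it without SCM + IgG replicate 5 or Wnt5a + IgG replicate 2, 3 or 6 (0.59 to 0.65).

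Whether the rise depends on Ptk7 was addressed by setting anti-Ptk7 beside IgG within a medium. For SCM, 34 of the 38 members had lower values with the antibody and the median log2 fold change was -0.24, beside 0.0017 over all genes, but 0 were called by edgeR, beside 1.23% of all genes in either direction. At an unadjusted p under 0.05 there were 14 members, or 36.8% against 17.1% of all genes, and DESeq2 and voom with limma called 0. With replicate number as a block, edgeR called Cnn2, Msn and Flna, all lower, beside 1.52% of all genes lower. On adjusted p alone, in the fit without the block, Tes and Tagln2 were lower, 2 members beside 1.44% of all genes. They are given here after their values were seen. Tes lay at 234 to 270.0 CPM (median 252) with IgG and 169 to 209.9 CPM (median 198) with anti-Ptk7, and the ranges did not overlap, as for 1.73% of all genes. It differed by -0.36 (standard error 0.085, adjusted p = 0.0153), and by -0.42 without replicate 1 (adjusted p = 0.000346, edgeR). Tagln2 lay at 825 to 1268 CPM (median 911) with IgG and 591 to 885 CPM (median 673) with anti-Ptk7, overlapping only through anti-Ptk7 replicate 1, and differed by -0.46 (standard error 0.12, adjusted p = 0.031) with all libraries and by -0.46 (adjusted p = 0.000624) without replicate 1 (edgeR quasi-likelihood fit with Benjamini-Hochberg adjustment).

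In SCM, leaving out replicate 1 changed the call of Msn and Flna with the antibody. Msn lay at 4.61 to 11.6 CPM (median 8.84) with IgG and 0 to 8.89 CPM (median 2.28) with anti-Ptk7, where the 8.89 CPM was replicate 1 and the next library had 3.35. Its log2 fold change was -1.46 (standard error 0.52, adjusted p = 0.125) with all libraries and -2.17 (standard error 0.47, adjusted p = 0.00916) without the 6 libraries of that number (edgeR). Flna lay at 96.9 to 231 CPM (median 122) with anti-Ptk7, where the 231 CPM was again replicate 1 and the next library had 132, below all SCM + IgG libraries, which began at 171. It differed by -0.65 (standard error 0.29, adjusted p = 0.238) with all libraries and -0.92 (standard error 0.19, adjusted p = 0.008) without replicate 1. These were the 2 members called without replicate 1, both lower, beside 0.895% of all genes, with 8 of 38 lower on adjusted p alone (21.1%, against 1.75% of all genes), and 1 was called without SCM + anti-Ptk7 replicate 1 alone. Rhob showed no call and overlapping libraries, at 15.4 to 34.4 CPM (median 23) against 21.6 to 28.9 CPM (median 24.4) with IgG. It differed by -0.067 (standard error 0.25, adjusted p = 0.925), and Pdlim7, at 22.4 to 48.4 CPM (median 34.5) with anti-Ptk7, by -0.49 (standard error 0.28, adjusted p = 0.378) (edgeR). Vim was at 0.573 to 3.26 CPM with anti-Ptk7 in SCM and 0 to 6.82 with IgG, and the smooth muscle list summed to 41.9 to 56.1 against 22.7 to 43.2 CPM. The 9 epithelial markers summed to 11477 to 19242 CPM (median 14391) with anti-Ptk7 and 13275 to 20921 CPM (median 16225) with IgG, none was at 0 in all libraries and 0 were called (edgeR), with 4 lower and 5 higher. The part of these lists in the members' differences was not tested.

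**Figure D5:**
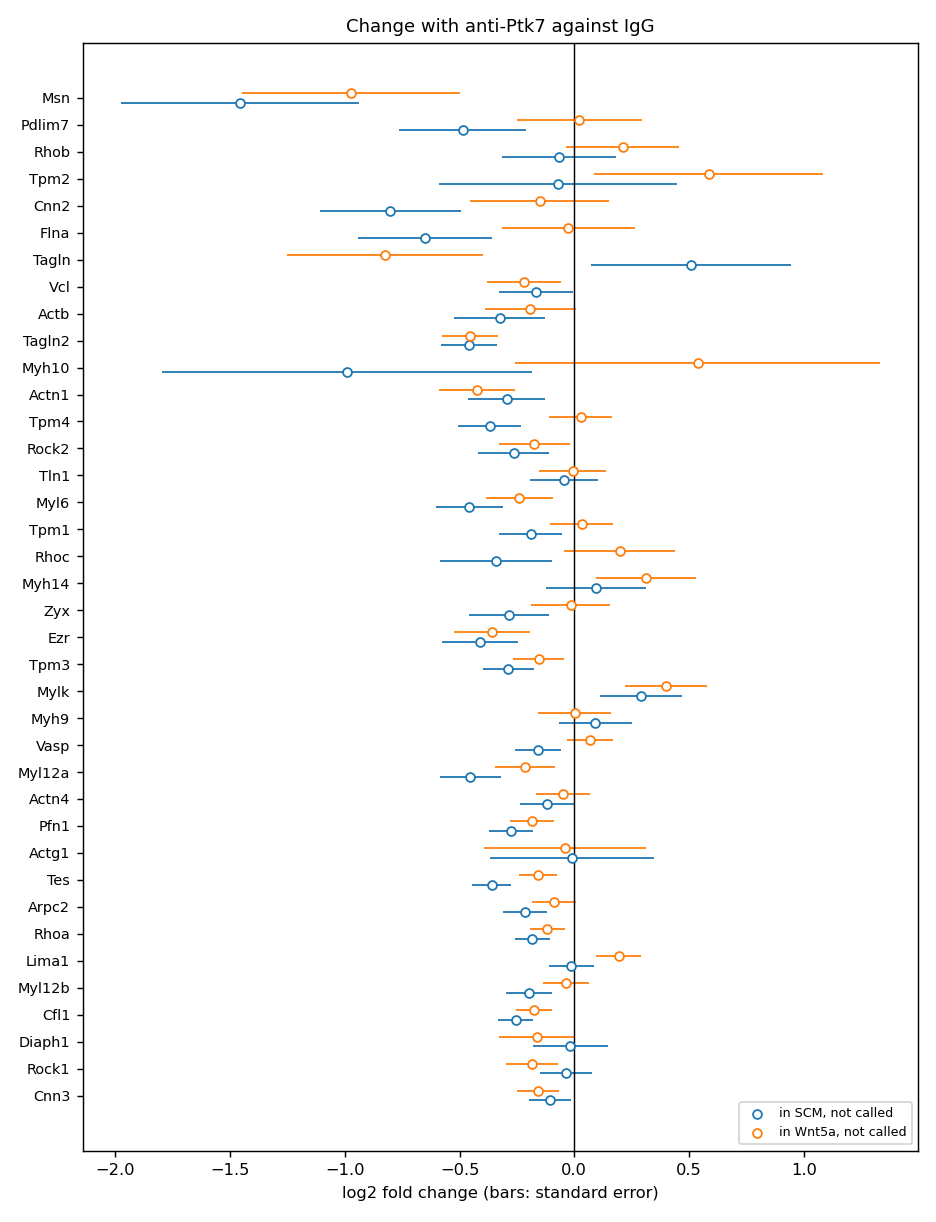
Log2 fold change of the 38 tested members with anti-Ptk7 against IgG, in SCM (blue) and in Wnt5a (orange), in the order of their change in Wnt5a against complete media; bars are standard errors and open points were not called. In SCM 34 of 38 points lie below 0, with Msn lowest at -1.46, and in Wnt5a 26 of 38.

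With Wnt5a, 26 of the 38 members had lower values under anti-Ptk7, and the median log2 fold change was -0.10, beside 0.0067 over all genes. That median was -0.015 without Wnt5a + IgG replicate 1, and -0.22, -0.064 and -0.050 without Wnt5a + anti-Ptk7 replicate 1, 2 and 3. Again 0 were called by edgeR, beside 0.884% of all genes, with 6 of 38 members (beside 2332 of all 15497 genes) at an unadjusted p under 0.05 and 0 by DESeq2. Voom with limma on quantile-normalized values called Msn, at -1.13 (adjusted p = 0.0490). Msn lay at 19.8 to 66.6 CPM (median 31.1) with IgG and 8.38 to 45.5 CPM (median 12.044) with anti-Ptk7, and 5 of the 6 anti-Ptk7 libraries were below all 6 with IgG, the exception being replicate 1. By edgeR it differed by -0.97 (standard error 0.48, adjusted p = 0.329) with all libraries and -1.22 (standard error 0.41, adjusted p = 0.128) without replicate 1. Tagln2 was the member lower on adjusted p alone, beside 1.52% of all genes, at 658 to 918 CPM (median 711) against 869.5 to 1419 CPM (median 949) with IgG. It differed by -0.45 (standard error 0.12, adjusted p = 0.0323) by edgeR, and by -0.41 (adjusted p = 0.00323) without replicate 1, where 3 members were lower on adjusted p alone (7.89%, against 1.32% of all genes), the others being Tes (-0.24) and Ezr (-0.40). Rhob, Pdlim7, Cnn2 and Flna were not called, at 0.21, 0.022, -0.15 and -0.026 with standard errors of 0.24, 0.27, 0.30 and 0.29. Without replicate 1 the count of members called was again 0, beside 61 of 15538 genes higher and 66 lower. The epithelial markers summed to 14649 to 35527 CPM (median 17337) with anti-Ptk7 and 15563 to 29428 CPM (median 16615) with IgG in Wnt5a.

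The antibody effect in Wnt5a less that in SCM was tested as an interaction. It was called for 0 members and 0.0% of all genes by edgeR, with 2 members (5.26%, against 3.88% of all genes) at an unadjusted p under 0.05 and 0 by DESeq2 and voom with limma, and without replicate 1 the count was again 0 by edgeR. For Msn the 2 effects differed by 0.49 (standard error 0.69, adjusted p = 0.999), for Flna by 0.63 (standard error 0.41, adjusted p = 0.999) and for Tagln2 by 0.0043 (standard error 0.17), so a difference between the media was not detectable at this spread.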

How the data were processed

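RNA of 36 organoid cultures was prepared with a Smart-Seq V4 kit and Nextera XT. The authors filtered reads with HTSeqGenie, aligned them with GSNAP to mouse NCBI Build 38 (mm10), and deposited raw counts of reads within coding sequences per Ensembl gene. The annotation release and the use of strand are not given in the sources used here. The study's own tests used voom and limma on quantile-normalized values.

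Here the counts were tested with edgeR 4.0.16 (R 4.3.3; quasi-likelihood test, TMM, 6 group means) after filterByExpr, which kept 15497 genes. Genes were called where the Benjamini-Hochberg adjusted p was below 0.05 with more than a 1.5-fold change. CPM was taken over the TMM-adjusted library size. On simulated data for SCM against complete media, with 200 of 15264 genes changed 2.5-fold, 192 were recovered with 4 false calls. The changed genes were drawn from the better-counted genes, and the libraries had no shift tied to replicate number. Recovery of changes near the 1.5-fold cutoff was not simulated. Alternatives were DESeq2 1.42.0, voom with limma 3.58.1, other scalings, filters and cutoffs, a replicate block, and leaving out single replicates. Leaving out all libraries of replicate 1 was added after the data were seen. Positions and coding lengths came from the GENCODE annotation of GRCm38, and shared 50-base stretches were counted in its transcripts.

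The members and lists were chosen with earlier results of these data known. Values in each group were given for the members called in any comparison (at most the 6 rising and 4 falling with the largest log2 fold change) and always for Actb, Actg1, Myh9, Myl9, Tagln, Rhoa, Rock1 and Rock2. From the pathway lists, the 3 called genes with the largest log2 fold change in each medium were named, except for items not reported here. Replicates of a group differed by more than sampling noise in all 90 pairs.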

Additional observations from a re-analysis of the deposited data

Results flagged for a closer look

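Of 162 sets of 6 libraries tested for a single library far from the rest (Dixon's test, critical ratio of gap to range 0.625), 33 were past the limit. The limit is set to give about 1 in 20 for independent sets of normal values. These sets share libraries and some hold mostly 0, so that rate is not their chance rate. In 26 of the 33 the library was replicate 1 and the highest of its group.

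In complete media, replicate 1 had 2037.7 CPM of Actb (next 1444.8) and 516.75 of Tpm1 (next 435.46), and in SCM + IgG it had 94.291 of Rhoc (next 57.199) and 1268.0 of Tagln2 (next 959.43). In SCM + anti-Ptk7 it had 231.36 of Flna (next 131.76) and 195.74 of Vcl (next 148.09).

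In Wnt5a + IgG, replicate 1 had 66.604 CPM of Msn (next 31.883), 4490.1 of Actb, 219.28 of Actn1, 638.09 of Myh14, 669.8 of Myh9, 1419.3 of Tagln2, 957.42 of Tpm1, 321.55 of Tpm4 and 296.1 of Zyx. In Wnt5a + anti-Ptk7 it had 45.467 of Msn (next 15.904), 3934.0 of Actb, 316.2 of Cnn2, 1356.9 of Ezr, 256.57 of Rock2, 918.19 of Tagln2, 1118.2 of Tpm1, 249.17 of Tpm3 and 390.8 of Tpm4. The mean log2 difference of the members from complete media was 0.40717 in QCM replicate 1 (next 0.18472) and 1.3563 in Wnt5a + anti-Ptk7 replicate 1 (next 0.78881). The summed epithelial markers were highest in the same libraries, and their part in these values was not tested.

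In the other 7 sets the library set apart was not replicate 1. Rock2 was low at 84.313 CPM in complete media replicate 2 (next 132.1), where Rhoa was high at 93.807. Myl6 stood at 23.891 CPM in SCM + anti-Ptk7 replicate 4, and Tagln at 1.6876 in Wnt5a + anti-Ptk7 replicate 6. Myl9, near the limit of counting, was set apart at 0.83382 in complete media replicate 3, 0.28486 in SCM + anti-Ptk7 replicate 3 and 0.46832 in Wnt5a + anti-Ptk7 replicate 2.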

How the results depend on the processing

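In all 154 alternatives the median log2 fold change of the members moved by less than an SD. The SD was that of the members' mean log2 difference between libraries of the group compared against. It was 0.20 in complete media, 0.13 in QCM, 0.18 in SCM and 0.25 in Wnt5a. Medians smaller than that SD could lose their direction and still pass. With replicates left out, the median ran from 0.059 to 0.13 for QCM and from -0.22 to -0.015 for anti-Ptk7 in Wnt5a. Of the alternative counts of members called, 169 stayed within 1.5 times the count reported and 35 did not; the causes were not tested beyond what each setting itself removes. For SCM against complete media the count was 20 with no fold-change cutoff and 5 at a fold change over 2, and 8 to 12 with a single replicate left out. For Wnt5a against complete media it was 33, 6 and 13 to 21. For SCM against QCM it was 6 in a fit of only the groups compared, and 0 to 5 with a replicate left out. All genes higher there moved too, from 118 of 15497 to 238 of 14290 in the first and 33 to 246 in the second. For Wnt5a against SCM, it was 1 with voom on quantile-normalized values, voom with TMM, scaling by library size alone or by upper quartile, no filter, only the groups compared or a fold change over 2, where Actn1 was lost, also 1 with a minimum of 10 counts in each library, which left Msn untested, and 0 to 4 with a replicate left out. With a replicate left out, all genes higher in Wnt5a against SCM ran from 8 to 78, where 46 were higher with all libraries. For anti-Ptk7 in SCM it was 2 with no fold-change cutoff and 0 to 2 with a replicate left out, and for anti-Ptk7 in Wnt5a it was 1 both with voom on quantile-normalized values and with no fold-change cutoff.

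Replicate numbers were not tied to mice by the labels, and deviations of same-numbered libraries correlated at 0.092 on average against -0.018 for different numbers, with 34 of 90 pairs over 0.1 and 16 of 36 libraries correlating best with their own number. With a replicate block, 12 members were called in SCM and 19 in Wnt5a against complete media (all genes higher: 5.82% and 8.62%), the first with Tpm2 added and the second without Myh14 (0.58), and 7 in SCM against QCM (2.74%). The block called Msn and Pdlim7 in Wnt5a against SCM, 2 members as without it, but with Pdlim7 in place of Actn1, which was at 0.57 (all genes higher: 1.03%). With anti-Ptk7 in SCM it called 3, Cnn2, Msn and Flna, all lower (all genes lower: 1.52%), where 0 were called without it.

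Single members changed sign in 5 alternatives for SCM against complete media, all with values near 0. Myh9 was -0.012 without SCM + IgG replicate 5 and Rock1 -0.0094 without complete media replicate 2. With a replicate left out the 3 genes ranged from -0.012 to 0.16 for Myh9, -0.0094 to 0.15 for Rock1 and -0.56 to 0.050 for Tagln. Tagln was 0.050 without SCM + IgG replicate 3, 0.014 without complete media replicate 4 and 0.045 without replicate 1. Counts of Myl9, Rdx, Myh10 and Actg1, near or under 1 CPM in most libraries, limit what can be seen of those genes.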
